A study of Homo sapiens with 6 samples.

Results

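Replication-independent histone variants are the histones that cells make outside DNA replication, and 9 genes that encode them were followed here in irradiated microglial cells. The genes were H2AZ1, H2AZ2, H2AX, H2AJ, H3-3A, H3-3B, H1-10, MACROH2A1 and MACROH2A2, chosen by name among 31768 genes of the deposited table, and their 78 transcript entries among 153848 were summed per gene and also kept apart. The cells were HMC3, an immortalized human microglial line, grown as 3 independent control cultures that received 0 Gy and 3 independent cultures that received 15 Gy of X-rays, all collected after 24 h. Full-length polyadenylated RNA was reverse transcribed, amplified and sequenced on Oxford Nanopore flow cells. The comparison throughout was irradiated over control, which asks how the RNA of these genes stood 1 day after a single dose.

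Canonical histones are made in S phase from clustered genes whose messages mostly lack a poly(A) tail. Variant genes lie alone, usually carry introns, and give polyadenylated messages through the cell cycle and in cells that no longer divide. The proteins replace canonical histones at particular places: H2A.Z at promoters, H3.3 at active genes and telomeres, macroH2A in silent chromatin, and H2AX throughout the genome, where its phosphorylation by the kinases ATM, ATR and DNA-PK marks double-strand breaks.

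Libraries held between 4870897 and 9082409 counts, and 12865 genes that reached 10 counts in 3 or more libraries were tested with edgeR. Control 3 stood closer to the irradiated libraries than the other controls did (correlations of 0.958 to 0.973 against 0.915 to 0.948, over genes). The label of microglia met few of its markers: of 20 listed, 10 were at 0 in every library and 15 stayed under 1 CPM, CX3CR1, P2RY12 and TMEM119 among those at 0, while CD68 was detected. The summed level of 14 fibroblast and pericyte markers ran from 367 to 404 CPM in controls and from 351 to 427 CPM in irradiated cultures, and of its 9 tested genes 5 rose and 2 fell. Summed neuron markers ran from 28.7 to 36.2 and from 37.2 to 45.3 CPM, and astrocyte and oligodendrocyte markers stayed under 3 CPM. The part of such markers in the values below was not tested. With bulk RNA, fewer cells of a kind and less RNA per cell cannot be told apart. Shorter genes stood lower after irradiation, with a median log2 fold change of -0.36 in the shortest quintile of genes and 0.32 in the longest, and H2AZ1, H2AZ2, H2AJ and H3-3A belong to that shortest group. The part of this trend in their values is given below by an offset that removes it.

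All 9 genes passed the filter on low counts. RNA of 4 fell (H2AZ1, H2AJ, H3-3A and H3-3B), RNA of 2 rose (H2AX and MACROH2A2), and H2AZ2, H1-10 and MACROH2A1 did not pass the test at an adjusted p under 0.05. Over all tested genes, 13.6% fell and 10.5% rose by the same rule. With library totals in place of TMM the split was 2 fallen and 4 risen members, with H2AZ2 (log2 fold change 0.40, edgeR adjusted p = 0.0427) and MACROH2A1 (0.65, edgeR adjusted p = 0.0188) called upward, beside 397 fallen and 4120 risen genes over all. With TMM, H2AZ1 was the single member past a log2 change of 1, a limit that 1.97% of all genes passed downward and 4.05% upward. No member passed it upward by edgeR with TMM, with or without adjustment of p (0 and 0 genes), or by DESeq2 (0 genes). H2AX and MACROH2A2 (1.24) passed it upward with library totals, and H2AX with an offset for gene length (1.02), while H2AZ1 stayed under it at -0.78 and -0.89. The groups did not overlap for 6 of the 9 genes, with 2 higher and 4 lower after irradiation, against 42.9% of all genes in either direction, 21.8% higher and 21.2% lower.

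**Figure D1:**
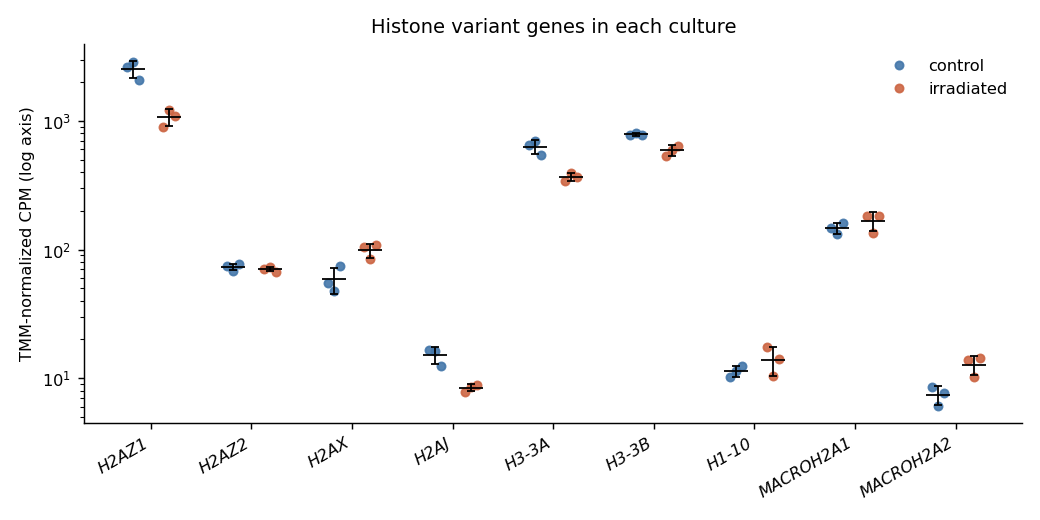
TMM-normalized CPM of each of the 9 genes in every culture on a log axis (blue, 3 controls; orange, 3 irradiated), with the mean and SD as black bars. H2AZ1, H2AJ, H3-3A and H3-3B are lower in every irradiated culture than in any control, H2AX and MACROH2A2 are higher, and the other 3 genes overlap.

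H2A.Z is loaded in exchange for canonical H2A by the SRCAP and p400/TIP60 complexes, and H2AZ1 and H2AZ2 encode near-identical forms of it. Their promoters are shown because the genes encode near-identical proteins and differed in response. Capitals mark CCAAT boxes (CCAAT), TATA boxes (TATAAA) and the cell cycle homology element CHR (TTTGAA or TTCGAA), searched on both strands in windows from 250 bases before to 50 bases after the RefSeq start (GRCh38.p14), of which 280 bases are printed, with the H2AX promoter for comparison.
H2AZ1 (chr4:99950246-99950525, minus strand): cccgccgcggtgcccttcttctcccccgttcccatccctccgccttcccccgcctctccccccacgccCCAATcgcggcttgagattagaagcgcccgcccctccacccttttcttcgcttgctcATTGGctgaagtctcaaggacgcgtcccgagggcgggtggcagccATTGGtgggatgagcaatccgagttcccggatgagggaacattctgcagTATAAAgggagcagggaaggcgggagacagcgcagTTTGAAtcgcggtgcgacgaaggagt
H2AZ2 (chr7:44848058-44848337, minus strand): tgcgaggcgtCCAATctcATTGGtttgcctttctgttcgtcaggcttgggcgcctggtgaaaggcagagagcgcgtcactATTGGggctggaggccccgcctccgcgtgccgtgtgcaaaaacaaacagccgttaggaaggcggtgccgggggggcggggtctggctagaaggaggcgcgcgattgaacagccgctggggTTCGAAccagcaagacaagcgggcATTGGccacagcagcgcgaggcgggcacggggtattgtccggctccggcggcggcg
H2AX (chr11:119095436-119095715, minus strand): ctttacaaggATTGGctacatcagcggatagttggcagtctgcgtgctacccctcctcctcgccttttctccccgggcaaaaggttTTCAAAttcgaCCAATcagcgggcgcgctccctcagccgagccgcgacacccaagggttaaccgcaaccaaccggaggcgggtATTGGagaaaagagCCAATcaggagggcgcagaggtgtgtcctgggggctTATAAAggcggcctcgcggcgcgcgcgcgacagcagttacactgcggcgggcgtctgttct
The H2AZ1 window held 3 CCAAT boxes, 1 TATA box at -31 and 1 CHR match at 5 bases from the start. The H2AZ2 window held 4 CCAAT boxes and a CHR match at -50, with no TATAAA, and that of H2AX held 4 CCAAT boxes, a TATA box at -31 and a CHR match at -164. Of 35116 promoter windows, 34.6% held CCAAT, 11.5% TATAAA and 16.4% a CHR match. Each match is a run of letters and says nothing about a bound factor.

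H2AZ1 (chr4:99948086-99950388, minus strand, GRCh38) was the most abundant of the 9 genes. Controls 1, 2 and 3 held 2630, 2853 and 2099 CPM, and irradiated cultures 1, 2 and 3 held 899, 1220.5 and 1088 CPM. Every irradiated culture lay under every control, and control 3 was the lowest control. The mean went from 2527 ± 388 to 1069 ± 162 CPM (SD, n = 3 each), a 2.36-fold decrease (log2 fold change -1.24, SE 0.150, edgeR adjusted p = 0.000967). With the length offset the log2 fold change was -0.89. Leaving out each library in turn gave values from -1.39 to -1.13, all past the threshold.

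Most H2AZ1 counts lay on ENST00000296417, the 979-base coding transcript, and ENST00000651623, which is not in GENCODE 29. Their counts were nearly equal in every library, so the same reads may stand in both entries. Each held 44.0% of the gene's counts in controls and fell (log2 fold change -1.41, SE 0.174, edgeR adjusted p = 3.27e-13 for the former). Retained-intron entries of H2AZ1, chosen after their values were seen, fell less or did not pass the test. ENST00000511348 fell by 0.59 on the log2 scale (edgeR adjusted p = 0.00319), and its isoform fraction, its share of the gene's counts, was 5.42% ± 1.01 in controls and 8.66% ± 0.916 in irradiated cultures (diffSpliceDGE adjusted p = 0.00369). ENST00000511203 had a log2 fold change of -0.30 that did not pass (edgeR adjusted p = 0.183), with a fraction of 3.88% ± 1.04 and 7.53% ± 1.05 (diffSpliceDGE adjusted p = 3.45e-05). The other retained-intron entries, ENST00000511319 and ENST00000527366, fell by 0.92 and 1.01 on the log2 scale (edgeR adjusted p = 1.55e-06 and 0.0349). Their fractions did not pass the usage test (diffSpliceDGE adjusted p = 0.294 and 0.996).

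H2AZ2 (chr7:44826791-44848083, minus strand) did not pass the gene test. Controls held 73.9, 68.5 and 77.4 CPM and irradiated cultures 71.1, 73.4 and 67.4 CPM, so the groups overlapped. The log2 fold change was -0.05 (SE 0.127, edgeR adjusted p = 0.793), and it was 0.40 with library totals and 0.32 with the length offset. H2AZ1 made up 97.3%, 97.7% and 96.4% of the summed counts of both genes in controls and 92.7%, 94.3% and 94.2% in irradiated cultures. The share was lower in every irradiated culture by a mean of 3.40 points, with a two-sided exact permutation p of 0.1 and an adjusted p of 0.1 over 3 gene pairs, the smallest that 3 against 3 cultures allow.

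The full-length coding transcript of H2AZ2, ENST00000308153, was lower in every irradiated culture while the gene's total overlapped. Its level was 46.3, 40.1 and 40.4 CPM in controls and 27.5, 30.5 and 26.5 CPM in irradiated cultures (log2 fold change -0.58, SE 0.167, edgeR adjusted p = 0.00503). Its fraction of the gene's counts was 62.4%, 56.7% and 51.7% in controls and 39.2%, 41.8% and 39.9% in irradiated cultures. This difference of -16.6 points missed the threshold by diffSpliceDGE (adjusted p = 0.0629) and passed it by limma's diffSplice (adjusted p = 9.25e-05). It passed without control 3 (diffSpliceDGE adjusted p = 0.00389), where the difference was -19.3 points.

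The other coding entries of H2AZ2 mostly lack an internal exon of that transcript. The exons concerned are exon 2 (absent from ENST00000350771), exon 3 (absent from ENST00000349299) and exon 4 (absent from ENST00000381124), shown here on the minus strand with the skipped exon in capitals and 10 bases of its neighbours in lower case.
exon 2 (chr7:44843277-44843354): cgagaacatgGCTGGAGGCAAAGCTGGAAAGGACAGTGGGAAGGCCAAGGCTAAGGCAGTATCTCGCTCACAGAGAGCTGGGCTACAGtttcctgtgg
exon 3 (chr7:44840899-44841012): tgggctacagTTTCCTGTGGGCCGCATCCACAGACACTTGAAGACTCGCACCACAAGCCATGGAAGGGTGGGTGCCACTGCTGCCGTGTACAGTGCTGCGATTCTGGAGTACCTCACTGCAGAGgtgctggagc
exon 4 (chr7:44835529-44835658): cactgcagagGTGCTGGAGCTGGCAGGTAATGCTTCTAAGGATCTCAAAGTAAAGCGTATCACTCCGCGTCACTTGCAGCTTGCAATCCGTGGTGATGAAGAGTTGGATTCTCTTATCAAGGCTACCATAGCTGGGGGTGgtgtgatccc
Exons 2 and 3 are 78 and 114 bases long, so that their loss leaves open reading frames of 306 and 270 bases in place of 384, and the loss of the 130-base exon 4 leaves 198. None of these 3 transcripts passed the transcript test (log2 fold changes of 0.43, 0.39 and 0.29, edgeR adjusted p = 0.102, 0.177 and 0.404). Summed over all coding entries that lack an internal exon, a measure added after the values were seen and given with no test, the share was 32.0%, 34.8% and 40.8% in controls and 52.5%, 49.6% and 51.2% in irradiated cultures. Control 3 was the control nearest to the irradiated cultures, and the groups did not overlap. H2AZ2 held only 303 to 652 counts per library.

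**Figure D2:**
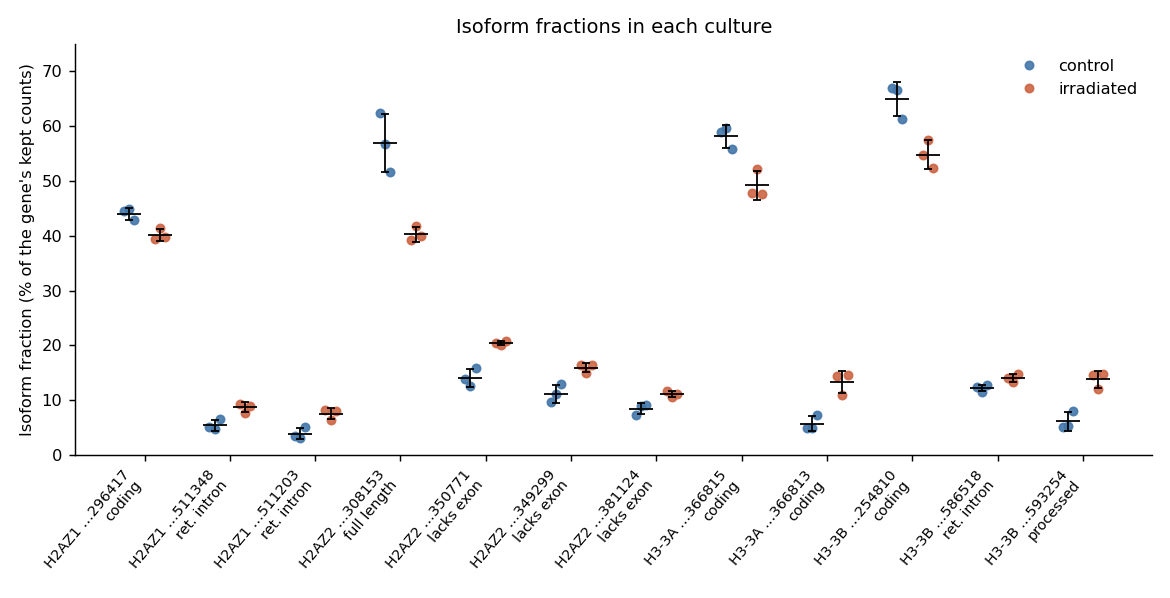
Isoform fraction, the percent of a gene's kept counts, of transcripts of H2AZ1, H2AZ2, H3-3A and H3-3B in every culture (blue, 3 controls; orange, 3 irradiated), with mean and SD in black. The leading coding transcript of each gene takes a smaller share in every irradiated culture than in any control. None of these changes passed diffSpliceDGE (adjusted p = 0.949 for H2AZ1, 0.0629 for H2AZ2, 0.576 for H3-3A and 0.655 for H3-3B). Each passed limma's diffSplice (adjusted p of at most 0.0389).

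Genes that load or remove H2A.Z stood as follows. Of 20 listed and tested, 6 fell and none rose by edgeR (1 rose at an unadjusted p under 0.05, 0 by DESeq2), with a median log2 fold change of -0.26 beside 0.08 over all genes. The median turned to 0.22 with library totals. RUVBL1 and RUVBL2, ATPases shared by both loading complexes, had log2 fold changes of -0.71 and -0.51 (edgeR adjusted p = 0.00635 and 0.00948). ZNHIT1, a SRCAP subunit, fell by 0.62 and ACTL6A, an actin-related subunit, by 0.73 on the log2 scale (edgeR adjusted p = 0.00677 and 0.00786). With library totals all 4 missed the threshold (RUVBL1 -0.25, RUVBL2 -0.04, ZNHIT1 -0.16 and ACTL6A -0.28, with edgeR adjusted p from 0.146 to 0.769), and with the length offset RUVBL2 missed it (-0.24, edgeR adjusted p = 0.104) and 3 genes of the list were called.

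H2AX (chr11:119093854-119095467, minus strand) encodes the break-marking variant and gives both a polyadenylated message and one that ends in a histone stem-loop, of which the library method captures the former. Controls held 54.6, 47.5 and 73.9 CPM and irradiated cultures 104, 85.0 and 108 CPM. The lowest irradiated culture lay above control 3, the highest control. The mean rose from 58.7 ± 13.7 to 99.0 ± 12.2 CPM (SD, n = 3 each), 1.68-fold (log2 fold change 0.75, SE 0.169, edgeR adjusted p = 0.00703), and the log2 fold change was 1.02 with the length offset. Leaving out each library in turn kept it past the threshold, with values from 0.62 without control 2 to 0.94 without control 3.

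Both H2AX entries rose. ENST00000530167, the 1614-base coding transcript, had a log2 fold change of 0.64 (edgeR adjusted p = 0.00135), and ENST00000375167, annotated to nonsense-mediated decay, had 0.79 (edgeR adjusted p = 6.55e-05). Their shares moved by 2.56 points and did not pass the usage test. Among 13 tested genes that phosphorylate, bind or remove the mark, 1 rose, beside 10.5% of all tested genes, so the count does not set this list apart. That gene was PRKDC, the catalytic subunit of DNA-PK (log2 fold change 0.50, edgeR adjusted p = 0.0118). ATR and ATM had 0.56 and 0.44 and did not pass (edgeR adjusted p = 0.064 and 0.114). The list held no fall by edgeR, also without adjustment, or by DESeq2 (0 genes each). Its median log2 fold change was 0.22, beside 0.08 over all genes.

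H2AJ (chr12:14774383-14778002, plus strand) encodes an H2A form known to build up in senescent fibroblasts with lasting DNA damage. Controls held 16.6, 16.4 and 12.5 CPM and irradiated cultures 7.83, 8.60 and 8.84 CPM. No value overlapped, and each rests on 60 to 110 counts. The mean fell 1.79-fold, from 15.1 ± 2.33 to 8.42 ± 0.529 CPM (log2 fold change -0.84, SE 0.221, edgeR adjusted p = 0.0156). The call was lost with the length offset (log2 fold change -0.45, edgeR adjusted p = 0.137), with library totals (-0.37, edgeR adjusted p = 0.187), without control 2 (edgeR adjusted p = 0.0614) and without irradiated 1 (edgeR adjusted p = 0.0651). ENST00000544848, its 644-base coding transcript, held 98.1% of the counts in controls and 93.2% in irradiated cultures and fell by 0.93 on the log2 scale (edgeR adjusted p = 6.03e-05).

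H3-3A (chr1:226061851-226072001, plus strand) and H3-3B (chr17:75776434-75785893, minus strand) encode the same H3.3 protein from different messages. H3-3A held 652, 694 and 544 CPM in controls and 340, 396 and 368 CPM in irradiated cultures. The groups were far apart, with control 3 again the lowest control. Its mean fell 1.71-fold, from 629.9 ± 77.2 to 368 ± 28.2 CPM (log2 fold change -0.78, SE 0.126, edgeR adjusted p = 0.0018), and it stayed past the threshold with each library left out, with library totals and with the length offset (-0.41). H3-3B held 774, 813 and 778 CPM in controls and 532, 598 and 643 CPM in irradiated cultures. The decrease was 1.33-fold (log2 fold change -0.42, SE 0.116, edgeR adjusted p = 0.0202), without overlap. It was lost without control 1, control 2 or irradiated 1 (edgeR adjusted p = 0.0627, 0.0550 and 0.0997), and with library totals the log2 fold change was 0.04. UNK overlaps H3-3B on the other strand and held 484 counts over the 6 libraries.

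H3-3A made up 45.7%, 46.0% and 41.1% of the summed H3-3A and H3-3B counts in controls and 39.0%, 39.8% and 36.4% in irradiated cultures. The groups did not overlap, with a mean difference of -5.89 points (two-sided exact permutation p = 0.1, adjusted p = 0.1).

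Within both H3.3 genes the leading coding transcript fell and a minor entry took a larger share, while other minor entries fell. Of 10 tested H3-3A entries 5 fell and 1 rose, and of 13 H3-3B entries 6 fell and 2 rose. ENST00000366815, the 1088-base H3-3A transcript with 4 exons, fell by 1.06 on the log2 scale (SE 0.167, edgeR adjusted p = 2.93e-08), and its share was 58.9%, 59.7% and 55.8% in controls and 47.8%, 52.2% and 47.6% in irradiated cultures. That difference did not pass diffSpliceDGE (adjusted p = 0.576) and passed limma's diffSplice (adjusted p = 0.000454). ENST00000366813 starts at chr1:226063977, downstream of that transcript's start at chr1:226062678, and keeps the same 408 coding bases. Its share was 4.94%, 4.96% and 7.29% in controls and 14.3%, 10.9% and 14.6% in irradiated cultures (diffSpliceDGE adjusted p = 2.25e-08), while its level had a log2 fold change of 0.41 that did not pass (edgeR adjusted p = 0.0621). The change of 7.55 points lay under the 10 points asked of a switch. ENST00000655399, at 28.0% and 28.5% of the counts, kept its share, and ENST00000366816 fell by 1.17 on the log2 scale. ENST00000667897, not in GENCODE 29, fell by 1.04 (edgeR adjusted p = 0.000377).

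In H3-3B, ENST00000254810, the 2705-base coding transcript, fell by 0.70 on the log2 scale (SE 0.168, edgeR adjusted p = 0.00049). Its share was 67.1%, 66.6% and 61.4% in controls and 54.7%, 57.5% and 52.3% in irradiated cultures, a difference of -10.2 points (diffSpliceDGE adjusted p = 0.655, limma adjusted p = 0.0389). ENST00000593254 is a processed transcript with 3 exons and no open reading frame in GENCODE 29. It rose by a log2 fold change of 0.71 (SE 0.163, edgeR adjusted p = 0.000289), and its share was 5.04%, 5.29% and 8.08% in controls and 14.6%, 12.1% and 14.8% in irradiated cultures (diffSpliceDGE adjusted p = 2.98e-06). ENST00000592643, chosen after its values were seen, has a shorter reading frame of 339 bases and rose by 0.83 (edgeR adjusted p = 3.23e-05), with a share of 2.77% ± 0.890 and 6.76% ± 1.26. ENST00000586518, a retained intron at 12.2% and 14.0% of the counts, did not pass either test. Minor entries that fell were ENST00000589599 (-0.98), ENST00000589949 (-0.86), ENST00000591890 (-0.66), ENST00000587171 (-1.80) and ENST00000589417 (-1.79), with edgeR adjusted p of at most 0.00309.

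Of 8 tested genes that place H3.3, 1 fell, beside 13.6% of all tested genes, so the count does not set this list apart. It was ASF1A, a chaperone that hands H3.3 to HIRA (log2 fold change -0.80, SE 0.225, edgeR adjusted p = 0.021). DAXX had -0.38 and did not pass (edgeR adjusted p = 0.0578), and with library totals its log2 fold change was 0.09. HIRA had 0.99 from 2.12 ± 1.44 and 4.55 ± 0.944 CPM (edgeR adjusted p = 0.127), and CABIN1, a subunit of the HIRA complex, had 0.88 (edgeR adjusted p = 0.212). The list's median was 0.28, beside 0.08 over all genes, with none risen by edgeR (1 at an unadjusted p under 0.05, 0 by DESeq2). The single fall was lost without control 1, without control 2, without irradiated 1 and without irradiated 3 (0 genes each), and 4 genes passed without control 3. With library totals ASF1A had -0.33 and did not pass (edgeR adjusted p = 0.235).

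MACROH2A1 (chr5:135333900-135399914, minus strand) encodes a histone with a large macro domain and comes in forms that differ by 1 exon. MacroH2A1.1 binds ADP-ribose and related metabolites, and macroH2A1.2 does not. The alternative exons are shown on the minus strand, with the bases identical in their alignment in capitals, and agree at 54 of 103 aligned columns.
macroH2A1.1 exon (chr5:135350823-135350913): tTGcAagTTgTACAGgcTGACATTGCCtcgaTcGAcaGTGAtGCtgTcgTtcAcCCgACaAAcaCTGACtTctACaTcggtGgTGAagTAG
macroH2A1.2 exon (chr5:135352946-135353045): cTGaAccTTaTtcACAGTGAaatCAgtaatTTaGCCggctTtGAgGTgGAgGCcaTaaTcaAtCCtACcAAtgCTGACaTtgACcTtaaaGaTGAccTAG
The gene total did not pass: controls held 148, 132 and 161 CPM and irradiated cultures 183, 134 and 184 CPM, which overlap (log2 fold change 0.19, SE 0.143, edgeR adjusted p = 0.356). The leading transcript taken alone gave -0.03.

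ENST00000312469, the coding transcript with the macroH2A1.1 exon, was chosen after its values were seen. It held 16.4, 13.8 and 11.9 CPM in controls and 7.48, 6.71 and 7.75 CPM in irradiated cultures. It fell by 0.91 on the log2 scale without overlap (SE 0.201, edgeR adjusted p = 0.000127), and its share of the gene went from 9.53% ± 1.98 to 4.47% ± 0.470 (diffSpliceDGE adjusted p = 0.000261). That usage call passed with each library left out, with adjusted p of at most 0.0188. ENST00000511689, which holds the macroH2A1.2 exon, had a log2 fold change of -0.20 (edgeR adjusted p = 0.45), and ENST00000304332, with the same exon, had 0.37 (edgeR adjusted p = 0.12).

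Among coding transcripts that hold either exon, the macroH2A1.1 exon took 67 of 293, 90 of 433 and 99 of 610 counts in the controls, which are 22.9%, 20.8% and 16.2%. In irradiated cultures it took 59, 47 and 64 counts, which are 10.4%, 12.5% and 10.9%. Every irradiated culture lay under every control, with control 3 the nearest. The mean difference was -8.70 points, given with no test since the measure was added after the values were seen. The difference was smaller over all annotated entries that hold either exon, coding or not, 4 with each exon. There the macroH2A1.1 exon took 31.7%, 29.9% and 28.5% in controls and 27.3%, 28.2% and 27.7% in irradiated cultures, a mean difference of -2.29 points. The counted entries share much sequence but differ in their ends as well as in this exon. ENST00000312469 has 1859 bases and ENST00000511689 has 2789, so the shares need not follow the exon alone. The sources do not state how reads that fit several transcripts were counted.

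**Figure D3:**
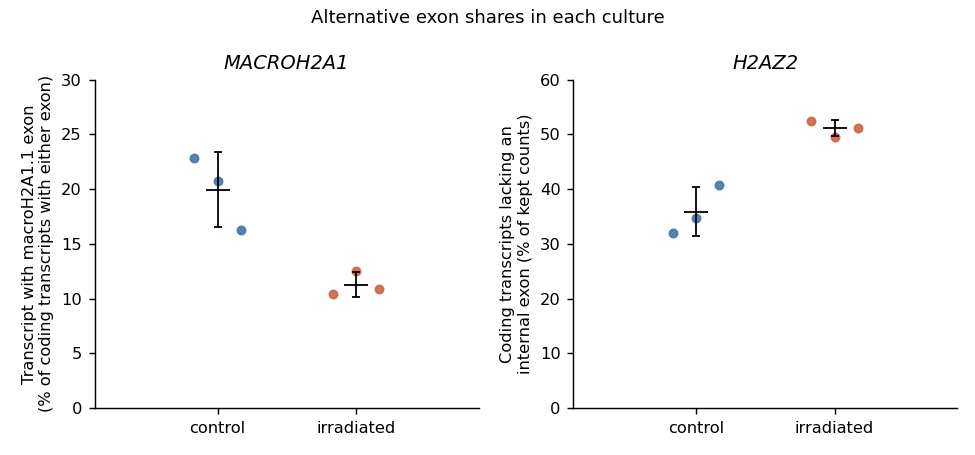
Left, share of the transcript with the macroH2A1.1 exon among coding MACROH2A1 transcripts with either alternative exon; right, share of coding H2AZ2 transcripts that lack an internal exon, in percent per culture (blue, controls; orange, irradiated; black, mean and SD). The MACROH2A1 share lies between 16.2% and 22.9% in controls and between 10.4% and 12.5% after irradiation, and the H2AZ2 share between 32.0% and 40.8% and between 49.6% and 52.5%.

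Of the 16 tested MACROH2A1 entries, 3 rose and 3 fell, ENST00000312469 among the latter. The processed transcripts ENST00000512507 and ENST00000451949 had log2 fold changes of 0.46 and 0.51 (edgeR adjusted p = 0.0431 and 0.0241). ENST00000512507 holds the macroH2A1.2 exon. ENST00000451949 holds the macroH2A1.1 exon and went from 17.8 to 25.4 CPM, opposite in direction to ENST00000312469 with the same exon. The entry ENST00000688649, not in GENCODE 29, had 0.54 (edgeR adjusted p = 0.0221). The groups overlapped for each of these 3 risen entries. ENST00000508785 fell by 1.11 and ENST00000507868, which holds the macroH2A1.1 exon, by 2.37 on the log2 scale (edgeR adjusted p = 0.0395 and 0.0386). Both fell without overlap, from low means of 2.16 and 0.763 CPM in controls.

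MACROH2A2 (chr10:70052796-70112280, plus strand), the paralog from a gene of its own, rose from low counts of 35 to 116 per library. Controls held 8.54, 6.11 and 7.71 CPM and irradiated cultures 13.7, 10.2 and 14.2 CPM. The increase was 1.72-fold without overlap (log2 fold change 0.78, SE 0.244, edgeR adjusted p = 0.0325). It missed the threshold without control 2, irradiated 1 or irradiated 3 (edgeR adjusted p = 0.116, 0.107 and 0.119), with DESeq2 (adjusted p = 0.0530) and with the leading transcript alone, an alternative added after seeing the data (log2 fold change 0.52, edgeR adjusted p = 0.236). None of its 11 tested transcripts passed by edgeR, and 4 had an unadjusted p under 0.05. MACROH2A1 made up 95.2% ± 0.564 of the summed counts of both genes in controls and 92.9% ± 0.107 in irradiated cultures (two-sided exact permutation p = 0.1, adjusted p = 0.1).

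H1-10 (chr3:129314771-129316277, minus strand) encodes H1X, a linker histone that binds where DNA enters and leaves the nucleosome. Controls held 10.2, 11.3 and 12.3 CPM and irradiated cultures 17.5, 10.3 and 14.0 CPM, and these overlap (log2 fold change 0.29, SE 0.236, edgeR adjusted p = 0.381). Its 2 entries had identical counts in every library, so its isoforms cannot be told apart here.

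Levels of the leading coding transcript of each gene, not of the gene's total, were compared as CPM per kilobase. In controls the order was H2AZ1 (1157 ± 212), H3-3A (343 ± 56.0), H3-3B (192 ± 13.9), H2AZ2 (56.2 ± 4.67), H2AJ (23.4 ± 3.81), H2AX (21.5 ± 4.77), MACROH2A1 (12.6 ± 0.584), H1-10 (3.81 ± 0.366) and MACROH2A2 (0.748 ± 0.0246). H2AJ and H2AX overlapped there, and no other neighbours did. In irradiated cultures H2AX (33.8 ± 3.60) stood above H2AJ (12.1 ± 1.09) with no overlap, and the rest of the order was the same. There the values of H2AX overlapped those of H2AZ2 (37.5 ± 2.78), and those of H2AJ overlapped those of MACROH2A1. The leading transcript held 98.1% of the counts of H2AJ, 58.4% of those of H2AX and 23.8% of those of MACROH2A1 in controls. The order can therefore depend on how counts were split between entries, and gene totals divided by length were not compared. By gene total without that division, H2AX already stood above H2AJ in controls (47.5 to 73.9 against 12.5 to 16.6 CPM).

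Over the members' 78 transcript entries, 71 were tested, 8 rose and 21 fell, against 8.76% and 10.8% of all 76581 transcripts. With the limit of 1 on the log2 change, 11 fell, against 4.36%, and 0 rose by edgeR or DESeq2 (4 at an unadjusted p under 0.05), against 3.48%. The usage test called 10 isoforms, against 4.44% of 74843. Besides entries whose share values are printed above, these were ENST00000656829, ENST00000661429 and ENST00000666609 of H3-3A, with a larger share. ENST00000587171 of H3-3B was also called, with a smaller share. Each was at under 3% of its gene. A switch, which also asks for 10 points, was called for 0 isoforms by diffSpliceDGE (1 at an unadjusted p under 0.05), for 2 by limma's diffSplice, which are the leading transcripts of H2AZ2 and H3-3B, and for 0.404% of all isoforms.

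**Figure D4:**
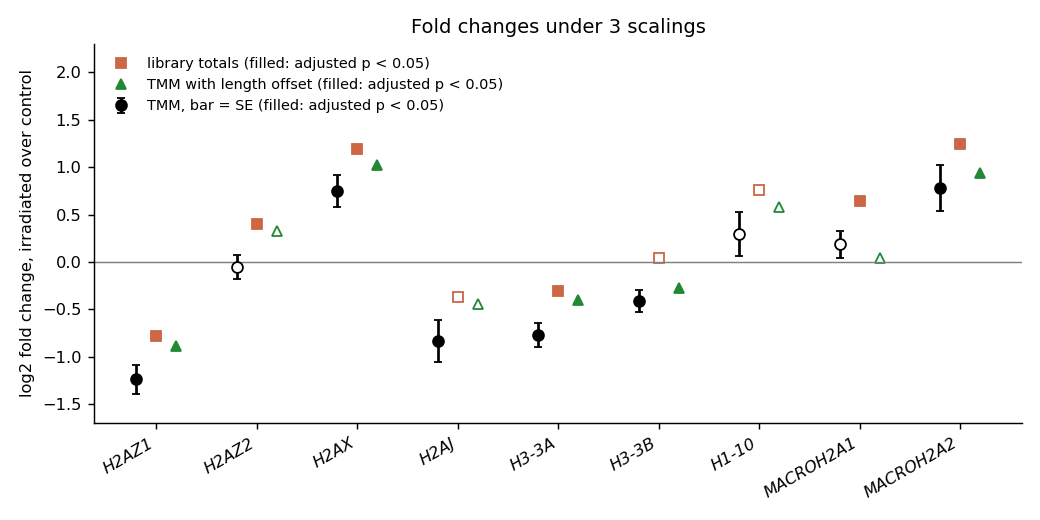
Log2 fold change, irradiated over control, of the 9 genes with TMM scaling (circles, bars are SE), with library totals (squares) and with TMM and a length offset (triangles), filled where the adjusted p is under 0.05. H2AZ1 and H3-3A are below 0 and filled under all 3, H2AX and MACROH2A2 above 0 and filled under all 3, and the square of H3-3B lies at 0.04.

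Scaling decides the sign for some members. TMM factors were 0.844, 0.788 and 0.931 in controls and 1.244, 1.096 and 1.184 in irradiated libraries, and library totals alone shifted the all-gene median from 0.08 to 0.53 on the log2 scale. Relative to that median H2AZ1 stood at -1.32 and -1.31 and H3-3B at -0.49 under both. H2AZ2 stood at -0.13 under both and H2AX at 0.67 and 0.66. Scaling factors move all genes of a library alike, so this likeness was fixed in advance and tests nothing. Relative to the all-gene median under the length offset, H2AZ1 stood at -0.97, H3-3B at -0.36, H2AZ2 at 0.24 and H2AX at 0.94.

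Histone genes outside the 9 were read the same way. Of 61 replication-dependent histone genes, 29 were tested, 21 fell and none rose by edgeR, also without adjustment, or by DESeq2 (0 genes each), with a median log2 fold change of -1.11. With library totals 8 passed, with the length offset 10, without control 2 10, without irradiated 1 11 and without irradiated 3 12. H2BC12 fell by 1.42 and H1-2 by 0.83 on the log2 scale (edgeR adjusted p = 0.000839 and 0.00347). H2AC18 and H2AC19 have identical counts and were counted as listed, with -1.18. These values cover polyadenylated RNA only. Among other replication-independent histones, CENPA, the centromeric H3, had a log2 fold change of 0.50 and did not pass (edgeR adjusted p = 0.145). H3-5, a retrotransposed H3.3 gene close in sequence to H3-3B, had 1.14 (edgeR adjusted p = 0.0184) and is uncertain because the counting could split reads between them.

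Cell cycle and p53 genes also moved, and their values are given as log2 fold changes. Of 20 genes of the G2 and M phases, 12 fell and 1 rose (median -0.50), with CCNB1 at -1.04, PLK1 at -1.08, AURKA at -0.90 and BIRC5 at -0.90. Of 21 S-phase genes, 7 fell and 3 rose (median -0.16, and 0.30 with library totals), with GINS2 at -1.46, FEN1 at -0.67, TK1 at -0.61 and UHRF1 at 0.80. Of 20 p53 response genes, 13 rose and none fell by edgeR, also without adjustment, or by DESeq2 (0 genes each; median 1.09), with CDKN1A, the cell cycle inhibitor p21, at 1.75, FDXR at 2.34, MDM2 at 1.63 and TP53I3 at 1.13. Their part in the values of the histone variants was not tested.

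For each member that rose or fell, the genes most like it by Pearson's r of log2 CPM over the 6 libraries were found among 4256 or 4257 genes averaging 20 CPM or more, as a description, since the libraries fall into 2 groups. They were PSMA7, SNRPD1 and TUBG1 for H2AZ1 (r of 0.9997, 0.9994 and 0.9992), ENSG00000267458, CCN1 and PGAM4 for H2AX, SPC25, AIMP1 and TUFM for H2AJ, GLO1, RPL6 and KPNA2 for H3-3A, NIP7, MRPL50 and ENY2 for H3-3B, and HGS, PCBP1-AS1 and NEK6 for MACROH2A2. The r values ran down to 0.990.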

How the data were processed

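Polyadenylated RNA of 6 HMC3 cultures, 3 control and 3 irradiated, was sequenced as PCR-amplified cDNA. The deposited counts, whole numbers for each transcript in each library, were made by the authors with minimap2, StringTie2, GffCompare and Salmon on GRCh38. Versions, the annotation release, strand handling, collapse of molecular identifiers and the treatment of reads that fit several transcripts are not stated there. Of 14398 transcripts with at least 20 counts in every library, 151 had the same counts as another of their gene. Libraries held 4870897 to 9082409 counts, which limits counting error only, since amplified reads are not independent molecules.

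Counts were summed per gene. Genes reaching 10 counts in 3 or more libraries were kept, without the study's demand for at least 2 transcripts, and transcripts of those genes with at least 3 counts in at least 1 library. Tests used edgeR 4.0.16 in R 4.3.3 (TMM, robust glmQLFit, glmQLFTest; diffSpliceDGE for usage) with Benjamini-Hochberg adjustment over all features; SE is the absolute log2 fold change over the root of F. CPM are TMM-normalized. A gene rose or fell at an adjusted p under 0.05, and a switch also needed a fraction change of at least 10 points. The alternatives were DESeq2 1.42.0, limma 3.58.1, other scalings and filters, a length offset, blocking on replicate number, and leaving out each library. Scripts were tested on simulated data. GENCODE 29 gave classes, lengths and coordinates for 55 of the 78 transcripts. RefSeq gave promoters. Plots were drawn in matplotlib 3.10.9 and tables in pandas 2.3.3 under Python 3.11.15.

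The members and gene lists were chosen with earlier results of these data known. Named transcripts held at least 10% of their gene's counts, switched, or passed the test with a log2 change over 1 and at least 1 CPM; of each list, the 4 genes with the smallest adjusted p are named. A few genes that meet it are not reported here.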

Additional observations from a re-analysis of the deposited data

How the results depend on the processing

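With library totals 4 members rose and 2 fell, and MACROH2A1 and H2AZ2 were called upward. With each library left out, the count of members called ran from 3 (without control 2 or irradiated 1) to 6, of member transcripts from 19 to 31 and of switched member isoforms from 0 to 1. Over all genes, differentially expressed genes numbered 775, between 428 and 1476 with a library left out, and 2313 with library totals. H2AZ1, H2AX and H3-3A kept their direction and call under every alternative run. The shares of H2AZ1, H3-3A and MACROH2A1 in their pairs kept their direction under all, with differences from -3.74 to -2.88, from -7.47 to -4.90 and from -3.41 to -2.05 points over the alternatives in points (from -2.57 to -2.05 for MACROH2A1 with a library left out).

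Switched member isoforms numbered 2 with limma's diffSplice, 1 with fractions from counts divided by length and 1 with the replicate block. Directions turned with library totals for H2AZ2 (log2 fold change 0.40), H3-3B (0.042), DAXX (0.086), ENST00000511203 (0.18), ENST00000586518 (0.24), ENST00000511689 (0.31) and the medians of the H2A.Z loaders (0.22) and S-phase genes (0.30). They also turned for H2AZ2 with the length offset (0.32), for MACROH2A1 with the leading transcript alone (-0.031), an alternative added after seeing the data, and for fraction changes near 0 with a library left out: ENST00000687629 (from -0.033 to 0.33 points) and ENST00000527366 (from -0.0028 to 0.029 points). The cause was not tested.

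Counts called in the gene lists moved as follows. With library totals, replication-dependent histones numbered 8, H3.3 loaders 3, H2AX signaling genes 6 and G2 and M genes 8. H3.3 loaders numbered 2 with RLE factors, DESeq2, no filter or the replicate block. With genes of at least 2 kept transcripts, replication-dependent histones numbered 10 and other replication-independent histones 0, and with the length offset the former numbered 10 and the H2A.Z loaders 3. With the leading transcript alone, H3.3 loaders numbered 3 and H2AX signaling genes 2. With a library left out, the ranges were 10 to 21 for replication-dependent histones, 0 to 4 for H3.3 loaders, 4 to 7 for H2A.Z loaders, 1 to 3 for H2AX signaling, 1 to 2 for other replication-independent histones, 5 to 12 for S phase, 8 to 13 for G2 and M and 10 to 13 for p53 genes.

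The labels do not say whether same-numbered cultures were paired. Deviations of same-numbered libraries from their group mean correlated at -0.04, 0.29 and 0.10 over 6495 genes. Controls 1 and 2 were both nearest to irradiated 2 (0.08 and 0.29), and control 3 to irradiated 1 (0.25). With 3 cultures per group these values cannot decide whether a day or batch was shared. The replicate block called 6 members and 27 member transcripts and 815 genes over all, and with it the fraction change of ENST00000308153 passed (adjusted p = 0.0413). Genes such as H2AJ and MACROH2A2, at under 20 CPM, rest on few reads.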
